A study of Mus musculus with 22 samples.

Results

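The 10 genes described here mark astrocytes, the star-shaped glia of the brain, and their reactive state: Gfap, Vim, Aqp4, Aldh1l1, Slc1a2, Slc1a3, Gja1, Aldoc, C4b and Serpina3n. They were chosen by name, as 10 of the 55385 gene identifiers in the deposited count matrix, and all 10 passed the filter on low counts in every comparison. RNA sequencing (RNA-Seq) of hippocampus (HIP) and entorhinal cortex (EC) was carried out in 11 male mice of 5-6 months, giving 22 libraries. The 6 Ts66Yah mice carried, beside their normal chromosomes, a freely segregating minichromosome with the distal part of mouse chromosome 16, from Mir155 to the telomere, which models the gene dosage of Down syndrome. It was made from the Ts65Dn chromosome by CRISPR removal of its centromeric chromosome 17 part, and the line goes back to 1 founder male. The 5 wild-type (wt) mice were littermates on the same mixed B6C3B background. None of the 10 genes lies on the duplicated part of chromosome 16, so all were present in the normal copy number in both genotypes.

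Astrocytes take up released glutamate, buffer potassium and water at blood vessels and synapses, and are coupled to each other by gap junctions. After injury, inflammation or in ageing they become reactive: intermediate filament genes such as Gfap and Vim rise, together with secreted proteins of the acute phase and complement systems such as Serpina3n and C4b. Gfap is also expressed at a high level by resting astrocytes of the hippocampus and of white matter, and at a low level by those of the cortical grey matter. Among the 6 remaining genes, Slc1a2 and Slc1a3 encode the glutamate transporters GLT-1 and GLAST, Aqp4 the water channel of perivascular endfeet, Gja1 the gap junction protein connexin 43, Aldh1l1 a folate enzyme used as a general astrocyte marker and Aldoc the brain aldolase. The libraries were made from whole dissected regions, in which fewer cells of a type and less RNA per cell cannot be told apart.

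Library totals ranged from 25900479 to 50105778 counts, and the lowest count of any of the 10 genes in any library was 106. The labels were checked with 8 genes picked for that purpose. Prox1, a transcription factor of dentate granule cells, lay between 105.9 and 131.4 CPM (counts per 1000000, scaled with trimmed mean of M values, TMM, factors) in HIP and between 9.87 and 13.7 in EC, C1ql2 and Zbtb20 did not overlap between the regions either, and the cortical genes Rorb and Tbr1 were higher in all EC libraries than in all HIP libraries. Fezf2, a cortical layer gene, did not separate them, with 17.6 to 29.1 CPM in HIP and 14.5 to 30.0 in EC. The triplicated genes App and Dyrk1a were 1.52-fold and 1.46-fold higher in Ts66Yah HIP, and 1.49-fold and 1.53-fold higher in Ts66Yah EC, all past the threshold (edgeR quasi-likelihood test, adjusted p = 0.00041 or lower). Markers of choroid plexus, the ventricular tissue attached to the hippocampus, were carried into the HIP libraries to a different extent: the summed level of its 9 markers ranged from 115.3 to 3388 CPM in wt HIP and from 797.5 to 2918 CPM in Ts66Yah HIP, against at most 45.7 CPM in EC.

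The start regions of 4 of the genes are shown because they stand for both patterns that follow, Gfap, Vim and Serpina3n for genes higher in HIP and Aldh1l1 for a gene higher in EC. Each window is from RefSeq (GRCm38.p6), runs 5′ to 3′ along the gene's own strand from 250 bases before to 30 bases after the RefSeq start, and is written in lower case with motif matches in capitals. The letters searched, on both strands, were the STAT motif TTCNNNGAA, the AP-1 motif TGANTCA, the TATA box TATAAA, the CCAAT box CCAAT and the GC box GGGCGG.
Gfap, chr11:102897171-102897450, minus strand: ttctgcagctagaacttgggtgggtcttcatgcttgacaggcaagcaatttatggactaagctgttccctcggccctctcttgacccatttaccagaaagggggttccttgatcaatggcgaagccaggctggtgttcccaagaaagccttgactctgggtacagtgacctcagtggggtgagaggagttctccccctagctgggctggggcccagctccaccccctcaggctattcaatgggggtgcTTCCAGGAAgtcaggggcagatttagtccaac
Vim, chr2:13574061-13574340, plus strand: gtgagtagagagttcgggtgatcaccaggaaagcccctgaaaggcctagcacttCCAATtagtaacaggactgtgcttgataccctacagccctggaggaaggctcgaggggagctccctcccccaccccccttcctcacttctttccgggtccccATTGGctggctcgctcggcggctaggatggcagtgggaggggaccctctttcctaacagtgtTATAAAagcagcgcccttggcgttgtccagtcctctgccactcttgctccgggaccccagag
Serpina3n, chr12:104406458-104406737, plus strand: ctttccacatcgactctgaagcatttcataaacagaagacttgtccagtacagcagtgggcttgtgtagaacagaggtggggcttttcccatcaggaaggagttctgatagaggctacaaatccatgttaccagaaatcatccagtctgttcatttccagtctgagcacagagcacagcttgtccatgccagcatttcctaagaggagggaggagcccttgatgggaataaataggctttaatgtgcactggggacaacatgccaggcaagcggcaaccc
Aldh1l1, chr6:90550543-90550822, plus strand: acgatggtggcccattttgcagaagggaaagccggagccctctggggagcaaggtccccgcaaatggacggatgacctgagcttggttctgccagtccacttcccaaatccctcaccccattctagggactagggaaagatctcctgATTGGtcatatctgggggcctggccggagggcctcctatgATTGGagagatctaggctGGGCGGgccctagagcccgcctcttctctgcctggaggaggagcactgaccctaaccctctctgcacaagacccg
The Gfap window held 1 STAT match, TTCCAGGAA, which begins 2 bases before the start, and the share of all 32851 RefSeq windows of this length with a STAT match was 7.83%. The Vim window held a TATA box that begins 32 bases before the start and 2 CCAAT boxes, which 13.1% and 36.1% of all windows held. In the Aldh1l1 window there were 2 CCAAT boxes and 1 GC box, the latter in 34.7% of all windows. The Serpina3n window held none of the 5 motifs, and an AP-1 match was in none of the 4 windows, against 7.46% of all windows. Of the other genes, Slc1a2, Slc1a3, Gja1 and Aldoc also had a window, and among these an AP-1 match, TGAGTCA, began 19 bases before the start of Gja1. STAT matches also stood in the window of Slc1a3 (TTCCAAGAA) and in that of 1 of the 2 starts of Aldoc, both genes higher in EC.

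Levels were compared between the genes as CPM per kilobase of exon. In wt HIP, Aldoc was the highest at 237.5 ± 17.1 CPM per kb (SD, n = 5), followed by Slc1a2 at 210.2 ± 12.0, with overlapping libraries. Next came Gfap at 89.7 ± 11.9 and Slc1a3 at 79.1 ± 2.36, which also overlapped, then Serpina3n (30.5 ± 2.42), Aqp4 (26.0 ± 3.69) and Gja1 (23.7 ± 1.49), in which each gene overlapped the next. Aldh1l1 followed at 10.9 ± 0.89 CPM per kb, apart from its neighbours, and Vim (7.40 ± 1.36) and C4b (5.56 ± 1.36) closed the order with overlapping libraries. In Ts66Yah HIP (n = 6) the 10 genes stood in the same order, from Aldoc at 248.6 ± 18.0 to C4b at 6.00 ± 1.70 CPM per kb.

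The order in EC was another. Aldoc (317.7 ± 35.4 CPM per kb in wt), Slc1a2 (248.1 ± 25.3) and Slc1a3 (97.6 ± 7.10) led, whereas Gfap, at 22.3 ± 4.68, fell between Aqp4 (23.8 ± 3.68) and Gja1 (21.6 ± 1.49) and overlapped both. Serpina3n came after Aldh1l1, at 6.60 ± 0.73 against 15.9 ± 0.98 CPM per kb, and C4b was the lowest at 1.37 ± 0.47. The order in Ts66Yah EC was the same as in wt EC, from Aldoc at 314.4 ± 45.8 to C4b at 1.12 ± 0.48 CPM per kb.

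**Figure D1:**
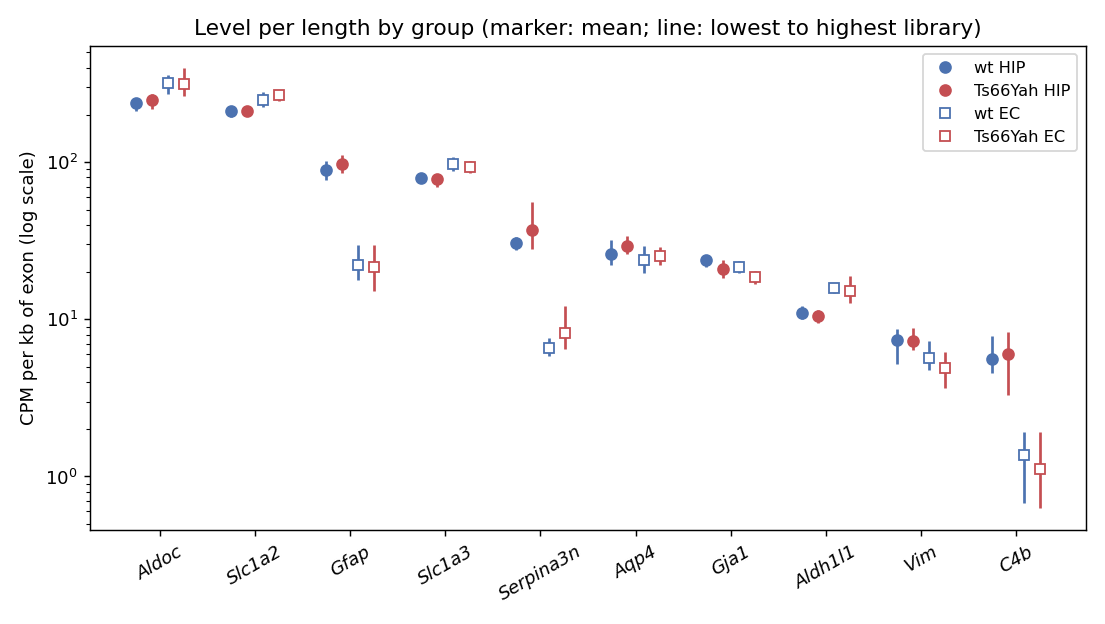
Level of each gene as CPM per kilobase of exon on a log scale, by genotype and region; markers are group means and lines run from the lowest to the highest library (n = 5 wt, n = 6 Ts66Yah). Gfap, Serpina3n and C4b drop in EC (wt means 22.3, 6.60 and 1.37) below their HIP levels (89.7, 30.5 and 5.56), while the other 7 genes differ between the regions by 1.49-fold or less in the fit.

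Whether the trisomy altered these genes was asked with Ts66Yah against wt in each region. None of the 10 genes passed the threshold in HIP or in EC (edgeR quasi-likelihood test, Benjamini-Hochberg adjusted p over all genes, threshold 0.05), where 0.591% of the 18452 genes tested in HIP and 0.283% of the 17658 in EC were called. At an unadjusted p under 0.05, 1 of the 10 genes stood in HIP and 1 in EC, Gja1 each time, beside 11.9% and 6.25% of all genes tested. DESeq2 and limma voom called 0 of the 10 genes as well. The intervals bound what these data allow: for the 6 genes other than Gfap, Vim, C4b and Serpina3n, the 95% intervals of the log2 fold change lay within -0.33 and 0.37 in HIP, and within -0.36 and 0.31 in EC. For Serpina3n they were wider, -0.02 to 0.58 in HIP and -0.03 to 0.65 in EC, and for Vim they were -0.28 to 0.24 and -0.50 to 0.10. Those of Gfap and C4b are given with these genes below.

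Among the reactive genes, Gfap (ENSMUSG00000020932, chr11:102887336-102900912, minus strand, GRCm38), the filament protein by which reactive astrocytes are recognised, had 431.8, 328.5, 421.7, 325.9 and 383.0 CPM in the 5 wt HIP libraries, and from 361.3 over a median of 405.2 to 468.2 CPM in the 6 Ts66Yah HIP libraries. The groups overlapped, and the fitted log2 fold change was 0.12 ± 0.09 (SE), with a 95% interval of -0.08 to 0.31 and an adjusted p of 0.67. Leaving out wt replicate 4 gave the lowest value, 0.07, and leaving out wt replicate 1 the highest, 0.17. In EC, the wt libraries had 96.9, 75.4, 81.0, 90.4 and 126.0 CPM and the Ts66Yah libraries 64.2 to 124.9 with a median of 90.7. There the log2 fold change was -0.06 ± 0.18 (interval -0.44 to 0.32), and the highest wt library lay above every Ts66Yah library. Vim (chr2:13573927-13582826, plus strand), the filament partner of Gfap, differed by a log2 fold change of -0.02 ± 0.12 in HIP and -0.20 ± 0.14 in EC, with adjusted p of 0.97 and 0.92 in the edgeR test.

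Serpina3n (chr12:104406729-104414329, plus strand), a secreted serine protease inhibitor, had the highest fitted ratio in both regions. The wt HIP libraries had 56.9, 62.0, 59.8, 66.5 and 69.3 CPM and the Ts66Yah HIP libraries 58.2 to 114.6 with a median of 74.1. In EC the wt libraries had 14.1, 12.3, 13.8, 15.8 and 12.1 CPM, and the Ts66Yah libraries 13.4 to 25.0 with a median of 15.1. The groups overlapped in both regions, and the highest library of each region came from the same mouse, Ts66Yah replicate 2. The log2 fold change was 0.28 ± 0.14 in HIP (unadjusted p = 0.064, adjusted p = 0.46, edgeR) and 0.31 ± 0.16 in EC (unadjusted p = 0.068, adjusted p = 0.84, edgeR). Without that replicate the values were 0.13 and 0.17 on the log2 scale, and over all libraries left out in turn they reached up to 0.35 in HIP (without Ts66Yah replicate 4) and 0.38 in EC (without wt replicate 4).

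C4b (chr17:34728380-34743882, minus strand), complement component 4, varied most between mice. The wt HIP libraries had 33.4, 25.9, 26.5, 28.1 and 44.5 CPM, and the Ts66Yah HIP libraries 18.9 to 47.0 with a median of 34.2. In EC the wt libraries had 7.90, 9.47, 6.83, 3.84 and 10.9 CPM and the Ts66Yah libraries 3.58 to 11.0 with a median of 5.40. The range of Ts66Yah enclosed that of wt in both regions. The log2 fold change was 0.11 ± 0.20 in HIP and -0.28 ± 0.29 in EC, with intervals of -0.31 to 0.54 and -0.91 to 0.35. With 1 library left out, the HIP value was lowest, 0.0018, when Ts66Yah replicate 3 was dropped and highest, 0.27, when wt replicate 5 was. The EC value ran from -0.51 (Ts66Yah replicate 4 dropped) to -0.13 (wt replicate 5 dropped), past no threshold in any of these fits. C4b shares 34.6% of its 50-base stretches with its neighbouring copy C4a, so reads of either could be counted for the other or not at all. C4a held 4.31% of the counts of both genes, and with C4a counts added the log2 fold changes were 0.08 and -0.29. Reads left uncounted cannot be recovered in this way, so the level of C4b, and its place after Vim in HIP, could be too low. Serpina3n shares 6.90% of its 50-base stretches with other genes, and with the counts of the other Serpina3 genes added its values were 0.28 and 0.32.

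Of the genes of resting astrocytes, Gja1 (chr10:56377330-56402513, plus strand) had a fitted value lower in Ts66Yah in both regions and passed the threshold in neither. The 5 wt HIP libraries had 261.3, 222.0, 254.5, 241.0 and 238.8 CPM, against 188.0 to 243.8 with a median of 212.3 in Ts66Yah HIP. In EC there were 218.3, 202.0, 229.9, 242.0 and 214.3 CPM in wt and 172.1 to 209.6 with a median of 192.0 in Ts66Yah. The groups overlapped: in HIP 3 of the 5 wt libraries lay below the highest Ts66Yah library, and in EC 1 did. The log2 fold change was -0.19 ± 0.07 in HIP (unadjusted p = 0.013, adjusted p = 0.28, edgeR) and -0.21 ± 0.07 in EC (unadjusted p = 0.0096, adjusted p = 0.55, edgeR). Over the 19 alternative settings it stayed between -0.23 and -0.15 in HIP, with adjusted p from 0.16 to 0.51, and between -0.24 and -0.17 in EC, with adjusted p from 0.32 to 0.95. Both regions come from the same 11 mice and are not independent repeats.

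The 2 glutamate transporters were the steadiest of the 10 genes. Slc1a2 (chr2:102658659-102790784, plus strand) averaged 2760 ± 157.4 CPM in wt HIP and 2795 ± 150.9 in Ts66Yah HIP, and the interval of the log2 fold change was -0.10 to 0.14. Slc1a3 (chr15:8634124-8710764, minus strand) averaged 675.7 ± 20.2 CPM in wt HIP against 665.9 ± 46.4 in Ts66Yah HIP, with an interval of -0.13 to 0.09. In EC their log2 fold changes were 0.10 ± 0.07 and -0.06 ± 0.07. Aqp4 (chr18:15389496-15410982, minus strand) had 0.18 ± 0.09 in HIP and 0.10 ± 0.10 in EC. Aldh1l1 (chr6:90486427-90600203, plus strand) had -0.05 ± 0.06 and -0.06 ± 0.09, and Aldoc (chr11:78322968-78327781, plus strand) 0.07 ± 0.06 and -0.02 ± 0.10, in HIP and EC respectively.

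**Figure D2:**
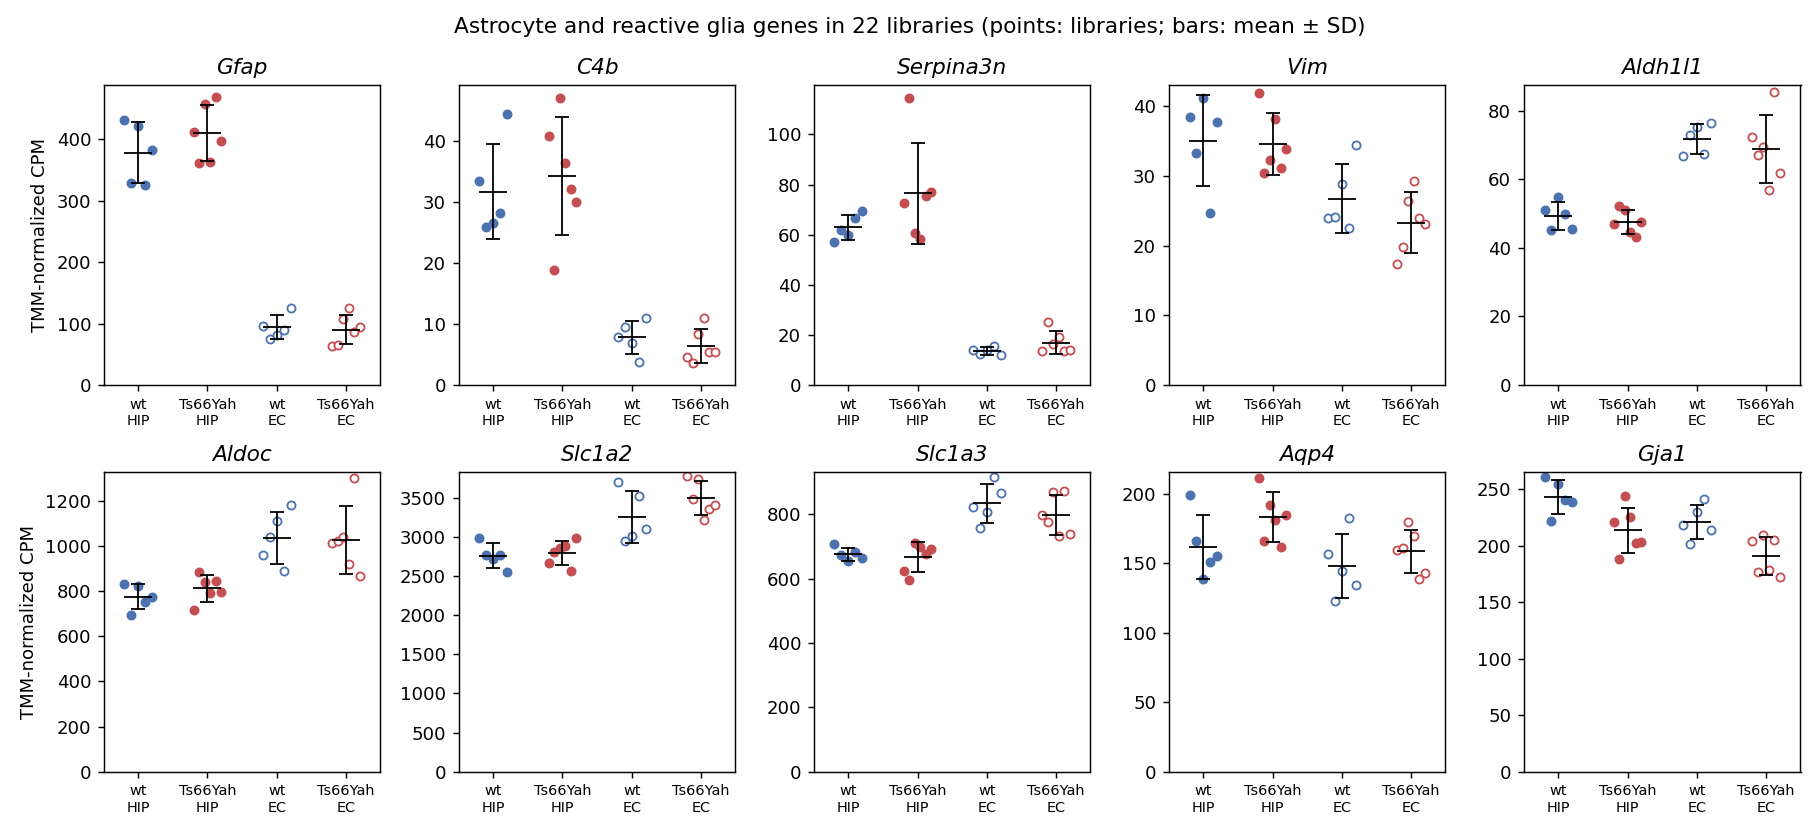
TMM-normalized CPM of the 10 genes in each of the 22 libraries, by genotype and region, with the mean and SD of each group as bars (n = 5 wt, n = 6 Ts66Yah; filled points HIP, open points EC; each axis starts at 0). Gfap, C4b and Serpina3n lie 4.02 to 5.32 times higher in HIP than in EC, and the wt and Ts66Yah points overlap in every panel.

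Beyond the 10 genes, a list of 40 other astrocyte genes held 3 that passed the threshold in HIP, where 0.591% of all genes did. Lcat, the enzyme that esterifies cholesterol on lipoproteins, rose from 21.8 ± 2.29 CPM in wt to 30.8 ± 3.49 in Ts66Yah, a log2 fold change of 0.50 ± 0.09 with an adjusted p of 0.016 (edgeR). Gpc5, a heparan sulfate proteoglycan of the cell surface, fell from 46.1 ± 1.23 to 35.8 ± 1.70 CPM (log2 fold change -0.36 ± 0.05, adjusted p = 0.00076, edgeR). Mfge8, a secreted protein that bridges phagocytes to dying cells, fell from 149.2 ± 16.0 to 115.1 ± 11.6 CPM (log2 fold change -0.37 ± 0.08, adjusted p = 0.049, edgeR). The call for Gpc5 held under all 19 alternatives (adjusted p up to 0.046), that for Lcat was lost under 3, among them leaving out wt replicate 5 (adjusted p up to 0.18), and that for Mfge8 under 11, among them limma voom and leaving out wt replicate 3, 4 or 5 or Ts66Yah replicate 1, 2, 3 or 6 (adjusted p up to 0.20). DESeq2 called 8 of the 40 in HIP, beside 2.05% of all genes it tested there. In EC none of the 40 passed in the edgeR test and 1, Cbs, in DESeq2, which called 0.606% of all genes, and these 3 had log2 fold changes of 0.40, -0.22 and -0.31. At an unadjusted p under 0.05 stood 13 of the 40 in HIP and 9 in EC, beside 11.9% and 6.25% of all genes tested, and the median over the 40 was -0.05 in both regions, beside a median over all genes tested of 0 in HIP and -0.0045 in EC.

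The 3 lists of genes reported elsewhere to rise in reactive astrocytes, here called pan-reactive, A1 and A2, were also counted. As used here they hold none of the 10 genes. No member of these lists passed in either region in the edgeR test, while DESeq2 called 1, Ggta1 of the A1 list in HIP. At an unadjusted p under 0.05 stood 1, 2 and 2 of the 9, 11 and 10 genes tested in HIP, and 1, 0 and 1 of 9, 11 and 9 in EC (edgeR). The cytokine and JAK-STAT3 list had 2 of 10 and the complement list 2 of 12 under that limit in HIP, and 0 of either in EC, with none called. These lists share members: in HIP, Osmr is counted in both the pan-reactive and the cytokine list, and Serping1 in both the A1 and the complement list. Of 12 microglial markers 1 passed in EC: Trem2, a lipid receptor of microglia, fell from 17.5 ± 3.82 CPM in wt to 10.9 ± 0.94 in Ts66Yah (log2 fold change -0.69 ± 0.13, adjusted p = 0.044, edgeR), while in HIP it had -0.50 ± 0.11 with an adjusted p of 0.068. The EC call was lost under 12 of 19 alternatives, among them limma voom, both blocks and leaving out wt replicate 1, 3 or 5 or any 1 of the 6 Ts66Yah libraries (adjusted p up to 0.24, log2 fold change -0.77 to -0.59). The summed level of the 12 microglial markers overlapped between genotypes, at 387.3 to 538.1 CPM in wt and 384.6 to 460.8 in Ts66Yah HIP, and at 476.6 to 635.6 and 491.9 to 582.4 CPM in EC.

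The region comparison asked how far the same genes differ between HIP and EC within a genotype. Its fits held region only, so their intervals and p leave out that HIP and EC came from the same mice. Counts from the fit with the mouse as a block are given further below. In wt, 8 of the 10 genes passed, 4 lower in EC and 4 higher, where 47.7% of the 17935 genes tested were called, 24.3% lower and 23.4% higher in EC. In Ts66Yah, 9 of 10 passed, 5 lower and 4 higher, where 54.0% of 18043 genes were called, 27.5% lower and 26.4% higher in EC. All 4 reactive genes were lower in EC in both genotypes. Of the other 6, Aldh1l1, Aldoc, Slc1a2 and Slc1a3 were higher in EC in both genotypes, and Aqp4 and Gja1 were lower in EC or past no threshold.

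Serpina3n was 4.61-fold higher in HIP in wt (95% interval 4.05 to 5.24) and 4.53-fold in Ts66Yah (3.45 to 5.95), with adjusted p of 1.1e-09 and 1.9e-07. Gfap was 4.02-fold higher in HIP in wt (3.27 to 4.93) and 4.55-fold in Ts66Yah (3.64 to 5.69), with adjusted p of 1.6e-07 and 2.6e-08. For C4b the ratios were 4.05 (2.85 to 5.77) and 5.32 (3.61 to 7.83), with adjusted p of 1.6e-05 and 2.3e-06. The libraries of the regions did not overlap for these 3 genes: the lowest HIP library of Gfap had 325.9 CPM and the highest EC library 126.0. In Vim the ratio was smaller, 1.31-fold higher in HIP in wt (1.06 to 1.63, adjusted p = 0.040) and 1.49-fold in Ts66Yah (1.25 to 1.78, adjusted p = 0.00081), and the wt libraries overlapped, with 38.5, 33.3, 41.3, 24.7 and 37.8 CPM in HIP and 24.0, 24.1, 28.9, 22.5 and 34.4 in EC. The wt call for Vim was lost without wt replicate 1, 2 or 3, with log2 fold changes of -0.32, -0.37 and -0.35.

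Aldh1l1 was 1.46-fold higher in EC in wt (1.31 to 1.62, adjusted p = 3.6e-05) and 1.44-fold in Ts66Yah (1.27 to 1.64, adjusted p = 0.00010). The wt HIP libraries had 51.1, 45.3, 54.8, 50.01 and 45.5 CPM and the wt EC libraries 66.8, 72.9, 75.3, 67.4 and 76.4, with no overlap. An antisense and a lincRNA gene overlap exons of Aldh1l1, and 10.0% of its 50-base stretches occur in other genes, so part of its reads could have been counted elsewhere or not at all. Aldoc was 1.34-fold higher in EC in wt and 1.26-fold in Ts66Yah, Slc1a3 1.24-fold and 1.19-fold, and Slc1a2 1.18-fold and 1.25-fold, all past the threshold. The wt call for Slc1a2 was lost without wt replicate 4 (log2 fold change 0.22 against 0.24).

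The perivascular and gap junction genes differed least. Aqp4 had 198.9, 166.1, 138.4, 150.7 and 154.9 CPM in wt HIP and 156.6, 123.1, 144.4, 182.8 and 134.3 in wt EC, a log2 fold change of -0.12 ± 0.12 with an adjusted p of 0.40 (edgeR). In Ts66Yah it was -0.21 ± 0.07 with an adjusted p of 0.028, a call that was lost without Ts66Yah replicate 1 (-0.17) or 6 (-0.18). Gja1 had -0.14 ± 0.06 in wt (adjusted p = 0.10, edgeR) and -0.17 ± 0.07 in Ts66Yah (adjusted p = 0.058, edgeR). With each mouse as a block the Ts66Yah value for Gja1 was -0.17 and passed the threshold (adjusted p = 0.013, edgeR), and it also passed without Ts66Yah replicate 5 (-0.20).

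Each mouse gave both regions, so the difference can be read within the animal. Gfap, Vim, C4b and Serpina3n were lower in EC in 11 of 11 mice, with EC minus HIP differences of log2 CPM of -2.68 to -1.54 for Gfap, -3.11 to -1.44 for C4b, -2.51 to -1.59 for Serpina3n and -1.27 to -0.14 for Vim. Aldh1l1, Aldoc, Slc1a2 and Slc1a3 were higher in EC in 11 of 11 mice, by 0.35 to 0.99 for Aldh1l1 and by 0.07 to 0.62 for the other 3. Aqp4 and Gja1 were lower in EC in 9 of 11 mice each. Set against Aldh1l1 in the same library, Gfap stood at a ratio of 7.67 ± 0.82 in wt HIP and 1.31 ± 0.26 in wt EC (ratio of CPM, n = 5), and at 8.67 ± 1.29 and 1.36 ± 0.50 in Ts66Yah (n = 6).

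The size of the region difference did not pass a test of its own between genotypes. In the interaction of genotype and region 0 of the 10 genes were called (edgeR quasi-likelihood test), none had an unadjusted p under 0.05, DESeq2 and limma voom called 0, and 0% of the 19074 genes tested were called, with 2.03% of them at an unadjusted p under 0.05. The fitted interaction, the EC minus HIP log2 fold change of Ts66Yah less that of wt, was -0.17 ± 0.21 for Gfap, -0.39 ± 0.37 for C4b, 0.03 ± 0.22 for Serpina3n and between -0.18 and 0.08 for the other 7. The 95% interval was -1.16 to 0.39 for C4b and -0.61 to 0.27 for Gfap.

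**Figure D3:**
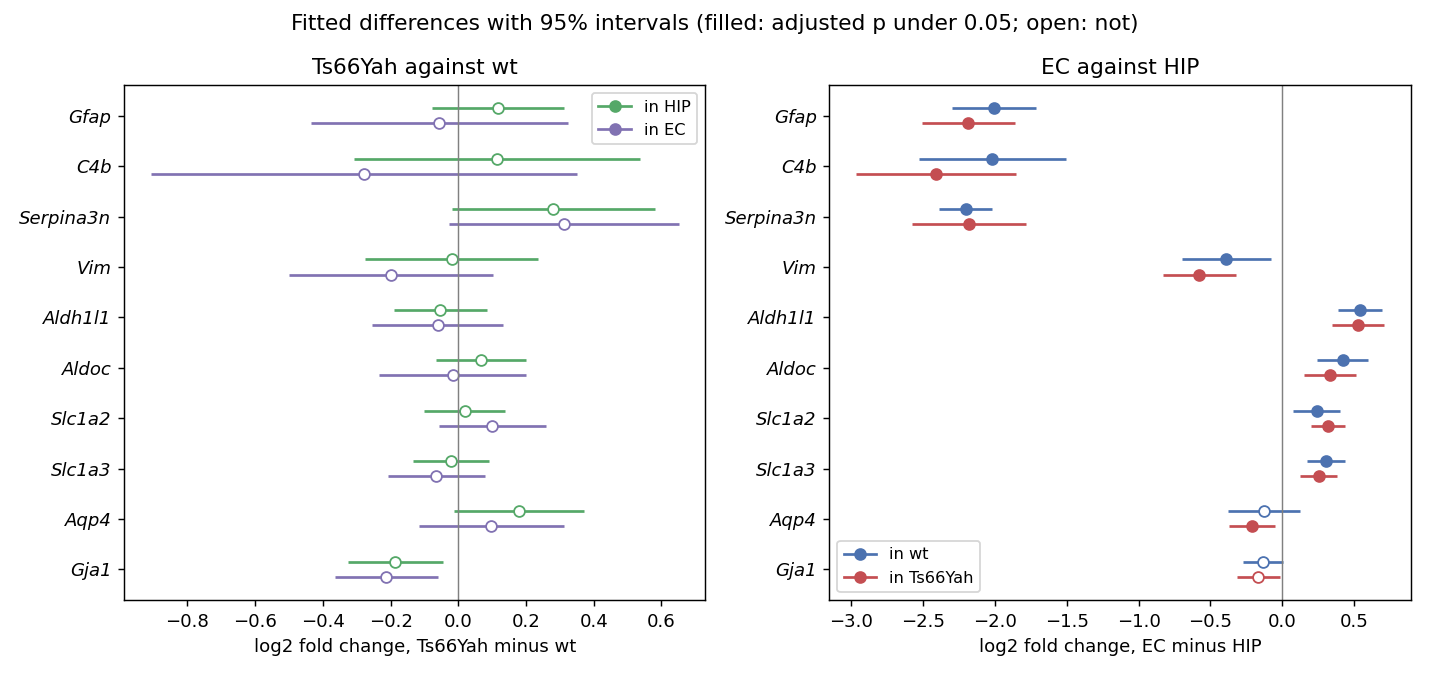
Fitted log2 fold changes of the 10 genes with 95% intervals, on the left Ts66Yah minus wt in HIP and in EC, on the right EC minus HIP in wt and in Ts66Yah; filled points passed the threshold of an adjusted p under 0.05. On the left no point is filled and only the intervals of Gja1 leave out 0, while on the right Gfap, C4b and Serpina3n lie between -2.41 and -2.01.

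The other lists were counted in the region comparison as well, beside 47.7% of all genes called in wt (23.4% higher and 24.3% lower in EC) and 54.0% in Ts66Yah (26.4% and 27.5%). Of the 40 other astrocyte genes, 12 were higher and 8 lower in EC in wt, and 13 and 8 in Ts66Yah, shares near those of all genes, with medians of 0.02 and 0.06 on the log2 scale beside medians over all genes of 0.01 and 0.0055. The farthest apart were Fjx1, a secreted regulator of planar cell polarity (1.86-fold higher in EC in wt, 2.05-fold in Ts66Yah), Mfge8 (1.80-fold and 1.88-fold) and Slc25a18, a mitochondrial glutamate carrier (1.70-fold and 1.72-fold). Of the pan-reactive list, here without Gfap, Vim and Serpina3n, 3 genes were higher and 1 lower in EC in each genotype. Gfap, Vim and Serpina3n themselves were lower in EC in both genotypes, and the counts and median of this list leave them out. Its member Cd44, the hyaluronan receptor, was 2.25-fold and 2.60-fold higher in EC, S1pr3 was 1.40-fold and 1.30-fold higher, and Aspg was 2.00-fold and 2.20-fold higher in HIP. The median of the pan-reactive list was 0.46 over the 9 genes tested in wt and 0.14 over the 10 tested in Ts66Yah. Of this list, Lcn2, Steap4, Timp1, Hspb1 and Cxcl10 averaged only 0.33 to 0.78 CPM, so the medians rest in part on genes near the floor.

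The A1 list had 4 higher and 2 lower in EC in wt, and 2 and 2 in Ts66Yah. Amigo2, an adhesion protein also known as a marker of hippocampal CA2 neurons, was 4.59-fold and 5.64-fold higher in HIP, Fkbp5, a glucocorticoid response gene, 1.80-fold and 2.07-fold higher in HIP, and H2-T23, a class I histocompatibility gene, 1.58-fold and 1.74-fold higher in EC. The A2 list had 3 higher and 3 lower in wt, and 3 and 5 in Ts66Yah. There, Cd109 was 6.51-fold and 7.52-fold higher in HIP, S100a10, which cortical neurons also express, 3.33-fold and 2.68-fold higher in EC, and Sphk1, a sphingosine kinase, 2.75-fold and 2.26-fold higher in EC. The cytokine and JAK-STAT3 list had 2 of 10 higher and 1 lower in EC in wt, and 2 and 2 in Ts66Yah, and the complement list, without C4b, 3 of 12 higher and 3 lower in wt, and 1 and 4 in Ts66Yah.

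Markers of other cell types moved with region. All 10 oligodendrocyte markers were lower in EC in both genotypes, with medians of -2.14 in wt and -2.01 in Ts66Yah, close to the -2.01 and -2.19 of Gfap, and their summed level was 7819 to 11440 CPM in wt HIP, 7932 to 10390 in Ts66Yah HIP, 1524 to 3754 in wt EC and 1784 to 3129 in Ts66Yah EC. All tested choroid plexus markers, 8 in wt and 9 in Ts66Yah, were lower in EC, as were 5 and 6 of 6 ependymal markers. Of 12 microglial markers, 6 were higher and 0 lower in EC in wt, and 9 and 1 in Ts66Yah. Of 10 neuronal markers, 7 were higher and 1 lower in wt, and 6 and 1 in Ts66Yah, the lower one being Nefl each time, which was named after its values were seen. Of 10 endothelial markers, 6 were higher in wt and 4 in Ts66Yah, with 0 lower. These counts stand beside the 23.4% and 24.3% of all genes called higher and lower in EC in wt, and 26.4% and 27.5% in Ts66Yah. Of 9 markers of meningeal fibroblasts, 6 were higher and 1 lower in wt, and 0 and 1 in Ts66Yah, and in the interaction of genotype and region 0 of the 9 were called, with 0 at an unadjusted p under 0.05 (edgeR). No marker of these lists had a median of 0 counts. Their part in the region differences of the 10 genes was not tested. With the 4 group means removed, the summed level of the oligodendrocyte markers correlated over the 22 libraries with Gfap at r = -0.12, with C4b at 0.09 and with Serpina3n at -0.33, and that of the choroid plexus markers at 0.07, 0.24 and -0.21. For Vim, r was -0.03 with the oligodendrocyte sum and 0.37 with the choroid plexus sum. These r describe 22 libraries of 11 mice and carry no test.

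The 10 genes varied to a different extent between mice of a group. The within-group SD of log2 CPM was 0.10 for Slc1a2 and Slc1a3 and 0.12 for Gja1, below the median of 0.20 over all genes, and 0.50 for C4b, above that of 85.7% of genes. Gfap (0.27), Serpina3n (0.28) and Vim (0.25) lay slightly above the median, and Aqp4 (0.17), Aldoc (0.15) and Aldh1l1 (0.14) below it. The SD was not adjusted for level, and Slc1a2 averaged 3084 CPM over the 22 libraries against 20.0 for C4b. The part of level in the spread was not tested. Over the 22 libraries, with the 4 group means removed, the 45 pairs of genes had a median r of 0.07, from -0.49 to 0.79. Gfap went with Vim (r = 0.69) and with C4b (0.62), and Vim with C4b (0.61). Serpina3n did not go with them: its r was -0.18 with Gfap, -0.22 with Vim and -0.43 with C4b. These r were farther below 0 in HIP (-0.34, -0.36 and -0.66) than in EC (-0.11, -0.095 and -0.28). Among the Ts66Yah HIP libraries, replicate 2 had the highest Serpina3n and the lowest Gfap, Vim and C4b. The part of that library in these r was not tested. Among the other genes, Aldh1l1 went with Aldoc (0.79), Slc1a3 with Gja1 (0.70) and Aqp4 with Slc1a2 (0.57), whereas Aqp4 and Aldoc had -0.43. Each of these positive pairs was positive within either region, and higher in EC: 0.84 in EC against 0.42 in HIP for Gfap and Vim, 0.90 against 0.53 for Aldh1l1 and Aldoc, and 0.83 against 0.55 for Slc1a3 and Gja1 (11 libraries each). Of the marker sums, that of oligodendrocyte precursors went with Gfap (r = 0.72), Vim (0.73) and C4b (0.62), but not with Serpina3n (-0.27). The neuronal sum moved opposite to Gfap (r = -0.63), C4b (-0.60) and Vim (-0.54), but not to Serpina3n (0.41). Other lists had r of like size, such as 0.74 for Vim with the A1 list, and those named were picked for their high r. The points share dissection and library, whose part was not tested.

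**Figure D4:**
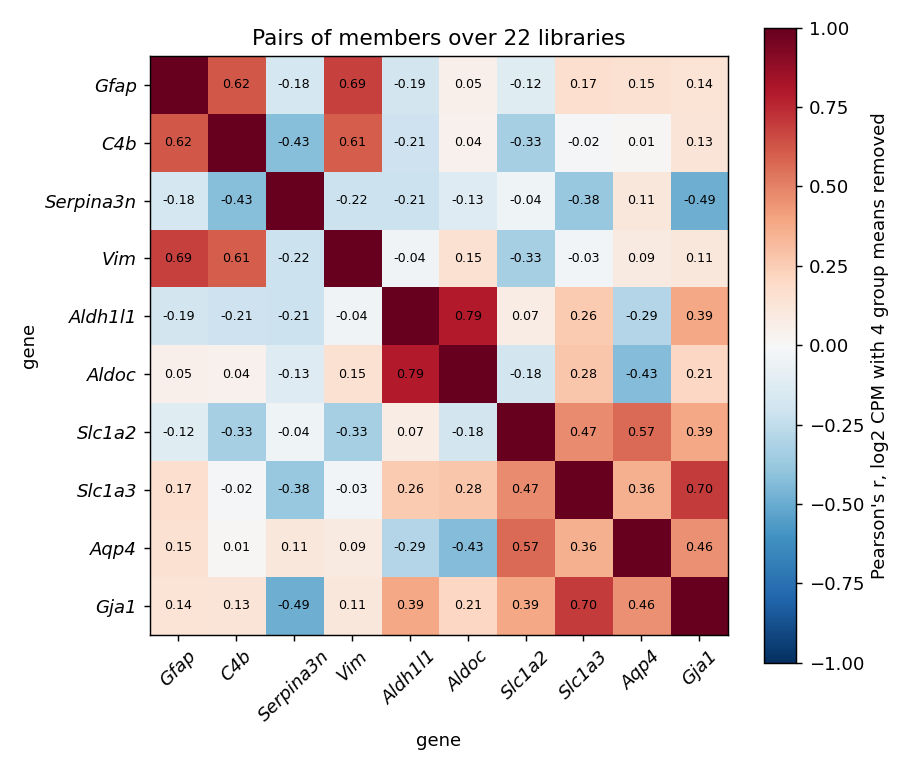
Pearson's r of log2 CPM between each pair of the 10 genes over the 22 libraries, after the mean of each of the 4 groups was taken out; red is positive and blue negative, and the values stand in the cells. Gfap, C4b and Vim form a block of r from 0.61 to 0.69, Aldh1l1 and Aldoc reach 0.79, and Serpina3n is negative with C4b and Gja1. Within regions, r of Serpina3n with C4b and Gja1 was -0.66 and -0.80 in HIP, against -0.28 and -0.19 in EC.

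The search for likeness took in 14954 other genes averaging 1 CPM or more. Those most like Gfap over the 22 libraries, with group means removed, were Arsb (r = 0.82), Triobp (0.79), Emid1 (0.79), Irf8 (0.78) and Nadk (0.78). Most like Serpina3n were Tanc1 (0.80), Sprn (0.79), Atp2c2 (0.78), C130013H08Rik (0.78) and Fam110b (0.77). The mouse Ts66Yah replicate 2 had the highest Serpina3n in both regions, and its part in this ranking was not tested. Most like the mean of Aqp4, Aldh1l1, Slc1a2, Slc1a3, Gja1 and Aldoc were Gm33027 (0.78), Kirrel2 (0.78), Endou (0.78), Ctss (0.75) and Crot (0.75). These are the highest of 14954 values each, over 22 libraries.

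Whether a mouse with a high level in HIP also had a high level in EC was asked with the 11 mice, after the genotype mean was removed. No gene passed after adjustment over the 10 (two-sided permutation test within genotype, 100000 draws). C4b had the highest r, 0.59 (permutation p = 0.072, adjusted p = 0.60; Spearman rho 0.52, permutation p = 0.11, adjusted p = 0.72), and r was 0.33 without the 2 mice farthest from the median in HIP. Gja1 had r = 0.54 (permutation p = 0.12, adjusted p = 0.60; rho 0.51, permutation p = 0.14, adjusted p = 0.72), and 0.28 without its 2 farthest mice. Serpina3n had r = 0.40 (permutation p = 0.38, adjusted p = 0.78) but rho -0.08 (permutation p = 0.84, adjusted p = 0.91), and its r was -0.710 without Ts66Yah replicate 2, the mouse with 114.6 CPM in HIP and 25.0 in EC. For the other 7 genes r lay between -0.22 and 0.29, with permutation p from 0.43 to 0.80 (adjusted p 0.78 to 0.80) and rho from -0.33 to 0.34.

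**Figure D5:**
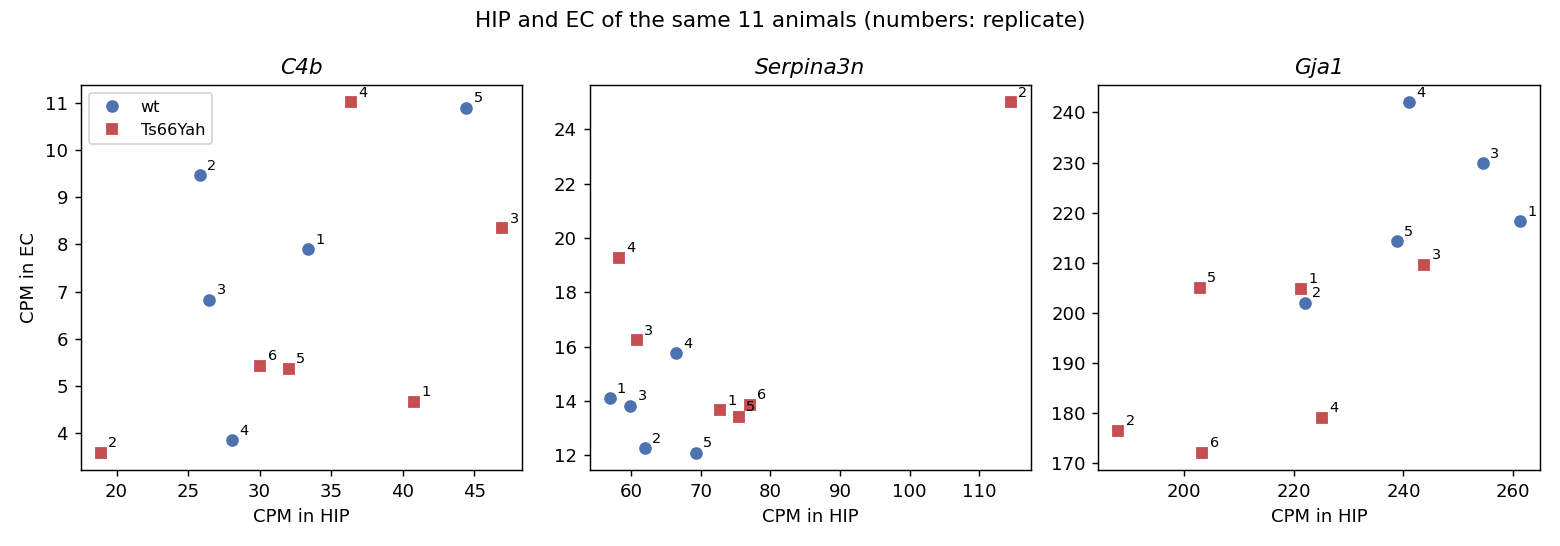
CPM in EC against CPM in HIP for C4b, Serpina3n and Gja1 in each of the 11 mice (circles wt, squares Ts66Yah, numbers are replicates; the axes do not start at 0). For Serpina3n, Ts66Yah replicate 2 has the highest level in both regions, 114.6 and 25.0 CPM, and for C4b and Gja1 the permutation test of the relation gave an adjusted p of 0.60 each.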

How the data were processed

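RNA was extracted from flash frozen HIP and EC of 5 wt and 6 Ts66Yah male mice, and 22 single-end libraries were sequenced. Per the labels and the study's methods, the authors mapped reads of 50 bases with Hisat2 to GRCm38 (Ensembl release 99) and counted them per gene with HTSeq-count; versions of these tools, the strand setting and the treatment of reads with several matches are not given in the sources used here. The sources name different library kits (polyA-selected stranded mRNA in the labels, a ribosomal depletion kit in the methods), which bears on levels but is common to all libraries. bcl2fastq 2.17.1.14 is named in the submitters' processing notes. The deposited matrix holds raw counts, in columns titled by sample. The 4 further tables hold only the authors' own comparisons and were not used.

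Of 55385 identifiers, 55144 matched GENCODE M21, which gave symbols, positions and exon lengths. Counts were tested with edgeR 4.0.16 (R 4.3.3): filterByExpr by group, TMM factors, glmQLFit and glmQLFTest, Benjamini-Hochberg adjustment over all genes tested, threshold 0.05. Genotype was compared within a region (11 libraries), EC against HIP within a genotype, and both in an interaction over 22 libraries. SE is the size of the log2 fold change divided by the square root of F, and 95% intervals use the fitted degrees of freedom. CPM use TMM factors, and log2 CPM a prior count of 2. HIP and EC of a mouse share its number; deviations from group means correlated at 0.21 to 0.45 in all 11 mice, so a fit with the mouse as a block was run for region comparisons. Alternatives were DESeq2 1.42.0, limma voom 3.58.1, relative log expression (RLE) factors, no filter, 1 CPM in 5 libraries, all 22 libraries in one fit, blocks, and each library or mouse left out. The number range block, used between genotypes, split the mice by range of animal number and left out wt replicate 1, which had no range. The fitting was tested on simulated data.

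The 10 genes, the other lists and the label genes were chosen with earlier results of these data known. Named beside the 10 genes were listed genes past the threshold in a genotype comparison, up to 6 a list, the 3 largest called region differences at a mean of 1 CPM or more in the astrocyte and reactive lists, and the 5 genes most alike for each likeness. Lists are described by counts and medians, with no test of a list. Promoter windows came from RefSeq; Aqp4 and C4b had no window here. The lowest count, 106, was that of C4b in an EC library.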

Additional observations from a re-analysis of the deposited data

How the results depend on the processing

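The counts of genes called kept within 1.5 times of their value under every alternative run: 0 of the 10 genes in HIP and EC between genotypes and 0 in the interaction throughout, 7 to 8 in the wt region comparison and 8 to 10 in the Ts66Yah region comparison when a mouse was left out. With the mouse as a replicate block, 8 genes were called in wt and 10 in Ts66Yah, where Gja1 was added; with 1 CPM in 5 libraries Ts66Yah also had 10, and with no filter 8. In the Ts66Yah region comparison Aqp4 was past no threshold with no filter (-0.20) or with all 22 libraries in one fit (-0.21). Between genotypes replicate numbers are names only: deviations of same-numbered wt and Ts66Yah libraries correlated at -0.01 to 0.18, and a replicate block called 0 genes.

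Signs that reversed between genotypes belonged to values near 0 that passed no threshold in any setting. In HIP, Vim (-0.02) became 0.023 with the animal number range as a block and ran from -0.12 to 0.046 as each library was left out. That block also left out wt replicate 1. Without that library alone Vim was 0.016, so block and lost library cannot be told apart. Slc1a2 (0.02) became -0.000352 with the replicate block and ran from -0.0096 to 0.050. Slc1a3 (-0.02) became 0.0020 with the number range and ran from -0.041 to 0.0098. In EC, Gfap (-0.06) ran from -0.17 to 0.071, and Aldoc (-0.02) became 0.028 with the replicate block and ran from -0.093 to 0.033. In the interaction, with each mouse left out, Aldh1l1 (-0.0066) ran from -0.10 to 0.046, and was 0.0049 with no filter, Aqp4 ran from -0.15 to 0.033, Gja1 from -0.061 to 0.015 and Serpina3n from -0.080 to 0.085. For HIP against EC of the same mouse, r with each mouse left out ran from -0.0236 to 0.428 for Gfap, -0.0327 to 0.634 for Vim, -0.503 to 0.194 for Aldh1l1, -0.0478 to 0.433 for Slc1a2, -0.101 to 0.263 for Slc1a3 and -0.710 to 0.646 for Serpina3n, and no gene passed in any of these runs. The causes were not tested. Among values that kept their sign, leaving out 1 library or mouse moved several uncalled ones by over 1.5 times: Vim in EC (-0.20) ran from -0.28 to -0.095, Aqp4 in EC (0.10) from 0.037 to 0.19, and the interactions of C4b (-0.39) and Gfap (-0.17) from -0.60 to -0.24 and from -0.32 to -0.047. By Dixon's 95% limit on log2 CPM no library stood apart in any of the 40 combinations of gene and group. On the CPM scale, chosen after seeing the data, 1 did, Ts66Yah replicate 2 for Serpina3n in HIP, with a gap over range of 0.67 against 0.59 on log2 CPM and a limit of 0.625; chance passes about 1 in 20 groups.

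The other lists were run under the same alternatives, chosen after seeing the data. Of the 40 other astrocyte genes 1 to 8 were called between genotypes in HIP (3 in the reported fit) and 0 to 1 in EC. In the region comparisons the calls ran, in wt and in Ts66Yah, from 4 to 8 and 3 to 8 for the complement list, from 5 to 11 and 10 to 10 for microglial markers, from 5 to 7 and 0 to 7 for endothelial markers, and from 4 (with 1 CPM in 5 libraries, where fewer genes are tested) to 9 and 9 to 9 for choroid plexus markers, while all 10 oligodendrocyte markers were lower in EC under every alternative run. Of the 12 listed genes named for their region difference, 1 call was lost, that of H2-T23 in wt without wt replicate 1 (adjusted p = 0.067, edgeR).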
